A study of Mus musculus with 62 samples.

Results

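The genes described here are 31 enzymes and carriers of fatty acid oxidation, taken by their symbols from the 47643 symbols of an RNA-seq table of mouse gastrocnemius, which lies in the calf and consists largely of fast-twitch fibres. The list was set by function, with earlier results of these data known, and all 31 symbols were found. The study followed muscle during melanoma-induced cachexia, a tumour-associated wasting of muscle and body fat, in female mice injected at 2 months of age. Mice received melanoma cells labelled as cachectic (CAC), melanoma cells labelled as non-cachectic (NCAC) or, as the control (Con), a mock injection. Muscles were collected 2, 4, 6 or 8 weeks after that. Each group held 5 libraries at each week, except CAC at 8 weeks, which held 7, so that there were 62 libraries in all. The cell lines are not named in the labels. The design text gives NCI Ath/nude as the strain and the sample labels give C57BL/6J, and 1 tag names cachectic cells for every library, so groups were taken from the sample descriptions. Nothing in the labels names the mouse behind each library beyond its replicate number, and p-values therefore measure the spread between these libraries.

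Fatty acids are first joined to coenzyme A by acyl-CoA synthetases, and long chains then enter mitochondria through the carnitine shuttle. The shuttle enzyme CPT1 is inhibited by malonyl-CoA, which ACC2 makes and malonyl-CoA decarboxylase removes. Inside the matrix an acyl-CoA dehydrogenase, a hydratase, a hydroxyacyl-CoA dehydrogenase and a thiolase shorten the chain in repeated rounds, and the electrons of the first step pass through the electron transfer flavoprotein. Muscle uses this pathway as a main source of energy at rest and in fasting, and its genes are known targets of the PPAR and oestrogen-related receptors.

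The values are TPM, transcript abundances per length that the authors scaled to the same total in every library, and changes are differences of log2(TPM + 1) with the moderated standard error (SE) of limma. A gene was called higher or lower where the Benjamini-Hochberg adjusted p over the 12364 genes tested was under 0.05. All 31 members passed the filter on low values. Libraries held an estimated 39.6 to 48.4 M reads (median 46.2 M), and the members stood on an estimated 134 reads (Acad10, lowest library) to 39549 reads (Acacb, highest library), so that counting error was small for all but the rarest. Genes encoded in mitochondrial DNA held a median of 34.2% of all TPM in Con and 23.3% in CAC at 8 weeks, and the median log2 change over all genes of CAC against Con was 0.09, 0.17, 0.28 and 0.36 at 2, 4, 6 and 8 weeks. Calls are therefore compared with a second scale, in which every library was rescaled by its median ratio to a common reference. Rescaling shifted that median by -0.08, -0.16, -0.27 and -0.34. Marker genes of fast fibres summed to 100500 to 174500 TPM in the 62 libraries. Of 6 melanocyte markers, Tyr was at 0 in 57 of 62 libraries and reached at most 0.0588 TPM, and Mlana, Pmel, Tyrp1 and Dct reached at most 1.15 TPM. The sixth marker, Sox10, was above 0 in all libraries and reached 6.00 TPM.

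In the 20 mock libraries the members spanned a wide range of levels. Medians were over 100 TPM for 12 members, from 10 to 100 TPM for 13 and under 10 TPM for 6. The most abundant was Etfb, the beta subunit of the electron transfer flavoprotein, at 370.8 TPM (range 277.8 to 436), followed by the thiolase Acaa2 at 310.1 TPM and the very-long-chain acyl-CoA dehydrogenase Acadvl at 305.7 TPM. The ranges of these 3 overlapped. The carnitine shuttle was led by Crat, carnitine acetyltransferase, at 283.8 TPM and by Cpt1b, the muscle form of CPT1, at 207.5 TPM, and the liver form Cpt1a stood at 5.98 TPM. Within a mock library at 8 weeks Cpt1b was 26.5 to 38.3 times as abundant as Cpt1a. The low end held 4 of the 5 long-chain acyl-CoA synthetases (Acsl4 at 8.24, Acsl6 at 6.97, Acsl5 at 4.80 and Acsl3 at 3.85 TPM, against 84.8 TPM for Acsl1), with Acad10 last at 1.88 TPM. No member was called as changing between weeks in Con by the F test of limma (0 of 31, 2 at an unadjusted p under 0.05, against 0.590% of all genes called). Those 2 were Acad9 (unadjusted p = 0.00218, adjusted p = 0.129) and Acsl4 (unadjusted p = 0.00281, adjusted p = 0.146).

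In CAC at 6 and 8 weeks some members were lower than in Con, and others were higher on the TPM scale. The limma F test of a CAC minus Con difference changing between the weeks called 1 of 31 members, against 12.1% of all genes. After rescaling it called 4 of 31, against 4.25% of all genes. At 6 and at 8 weeks 9 of the 31 members fell against Con at each week, where 5.41% and 5.55% of all genes were called lower. Of these members 8 were the same: Acads, Hadha, Hadhb, Hadh, Acaa2, Eci1, Decr1 and Etfb. At each of these weeks 6 members rose on the TPM scale, where 51.8% and 65.3% of all genes were called higher, so that rising members were fewer than the share of all genes. Of these members 4 were the same at both weeks: Acsl3, Acacb, Acad10 and Eci2. After rescaling 0 rose at 6 weeks and 2 at 8 weeks. On the TPM scale the sum of all 31 members moved less. It was 3675 ± 218 in Con and 3449 ± 449 in CAC at 8 weeks (SD, n = 5 and 7), with ranges of 3494 to 4040 and 2975 to 4200 that overlapped. The sum was not taken after rescaling, where the median log2 change of the members at 8 weeks was -0.49. In whole muscle, fewer cells of a type and less RNA of a gene in each cell cannot be told apart.

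**Figure D1:**
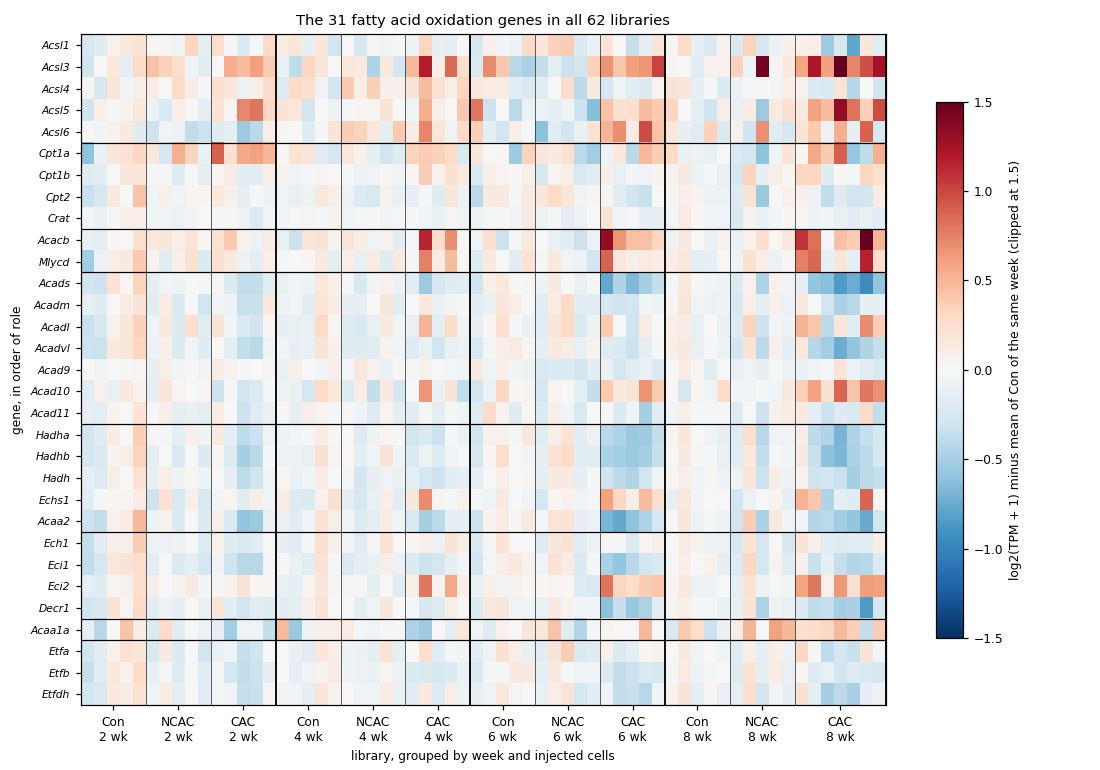
Heat map of the 31 members (rows, by role) in the 62 libraries (columns, by week and group). Colour is log2(TPM + 1) minus the mean of the mock libraries of the same week, clipped at 1.5. The blue rows of Acads, Hadha, Hadhb and Acaa2 and the red rows of Acsl3, Acacb and Eci2 appear in CAC at 6 and 8 weeks.

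At 2 weeks no member was called in CAC against Con by limma (0 of 31, 6 at an unadjusted p under 0.05), where 0.267% of all genes were called higher and 0.0162% lower. After rescaling the count was again 0 of 31, with 14 at an unadjusted p under 0.05 (0.226% of all genes higher and 0.0647% lower). The median change of the members was -0.10 on the TPM scale, where that of all genes was 0.09. At 4 weeks 2 members rose and 0 fell (23.0% of all genes higher, 2.38% lower), and after rescaling 0 rose and 8 fell (7.43% higher, 7.80% lower). The 2 that rose at 4 weeks were Acsl3 and Eci2, and neither was called without replicate 1 or 2 of Con or replicate 2 or 4 of CAC. Acsl3 was also lost without replicate 4 or 5 of Con or replicate 1 of CAC. Without replicate 2 of Con the 1 member called was Acsl4. At 6 weeks 6 rose and 9 fell (51.8% higher, 5.41% lower), and after rescaling 0 rose and 20 fell (14.4% higher, 17.2% lower). At 8 weeks 6 rose and 9 fell (65.3% higher, 5.55% lower), and after rescaling 2 rose and 20 fell (22.9% higher, 22.3% lower). The share of members called lower (9 of 31) was above that of all genes at 6 and 8 weeks, and the share called higher (6 of 31) was below it. The median change of the 31 members at 8 weeks was -0.10 on the TPM scale and -0.49 after rescaling, against 0.36 and 0.02 for all genes. Every member that fell on the TPM scale at 6 or 8 weeks was also called lower after rescaling (9 of 9 at each week). Rescaling shifted the median change of all genes by -0.27 and -0.34 at these weeks. That result was therefore nearly fixed in advance and is no separate check of the falls. Of the 6 that rose at 8 weeks, Acsl3 and Acad10 were also called higher after rescaling, and of the 6 that rose at 6 weeks none was.

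**Figure D2:**
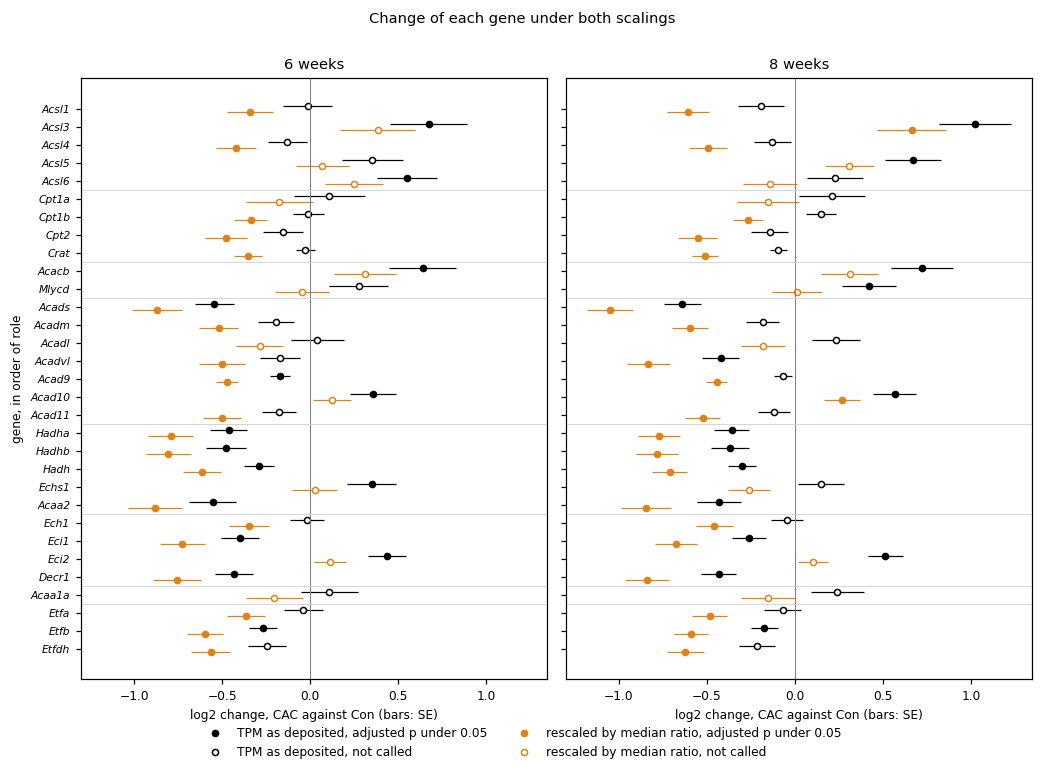
Log2 change of each member in CAC against Con at 6 weeks (left) and 8 weeks (right), with bars of 1 SE. Black points are TPM as deposited, orange points are rescaled values, and filled points have an adjusted p under 0.05. All 9 black points that are filled on the left of 0 in each panel have a filled orange partner, and Acsl3 and Acad10 at 8 weeks are the only filled orange points to the right of 0. Rescaling moved these changes down, so that the filled partners on the left were nearly fixed in advance.

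Of the 5 acyl-CoA synthetases, which activate long-chain fatty acids, 2 rose and 0 fell on the TPM scale at 6 weeks, and again at 8 weeks. Of all genes 51.8% and 65.3% were called higher at these weeks, so that this share was below that of all genes. Acsl3, a form found on the endoplasmic reticulum and lipid droplets, was 3.01, 3.54, 3.61, 3.71 and 3.74 TPM in Con at 8 weeks, and in CAC its lowest, median and highest values were 5.81, 7.83 and 14.5 TPM. The lowest CAC library lay above the highest Con library. The log2 change was 1.02 ± 0.20 (SE, adjusted p = 2.87e-05), and it was 0.66 after rescaling (adjusted p = 0.00547). Acsl3 had also risen at 4 weeks, by 0.57 ± 0.22 (adjusted p = 0.0488), a call that was lost in 7 of 10 refits that left out 1 library. Acsl5 rose at 8 weeks by 0.67 ± 0.16 (adjusted p = 2.83e-04), from 3.64 to 6.14 TPM in Con to 5.22 to 13.3 TPM in CAC, with overlap. After rescaling its change was 0.31 (adjusted p = 0.0642). Acsl5 shares 404 exon bases with Zdhhc6 on the opposite strand. At 8 weeks Zdhhc6 stood at a median of 16.8 TPM in Con and 19.3 TPM in CAC. Whether reads of Zdhhc6 entered the Acsl5 values was not tested. Acsl6 rose at 6 weeks by 0.55 ± 0.17 (adjusted p = 0.00671), from a Con median of 7.52 TPM to a CAC median of 11.4 TPM, and was 0.23 ± 0.16 at 8 weeks (adjusted p = 0.197). An antisense gene, Gm12224, shares 202 exon bases with Acsl6 and stood at a median of 53.5 TPM over all libraries. At 6 weeks the median of Gm12224 was 47.4 TPM in Con and 40.0 TPM in CAC, with ranges that overlapped. Whether reads were counted by strand is not given in the sources used here, and a part of Gm12224 in the Acsl6 values was not tested. Acsl1, the main muscle synthetase, was not called at any week (-0.19 ± 0.13 at 8 weeks, adjusted p = 0.179), but was called lower after rescaling at 6 and 8 weeks, by 0.34 and 0.60 on the log2 scale. Acsl4 was not called on the TPM scale at any week and was also called lower after rescaling at 6 and 8 weeks.

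None of the 4 genes of the carnitine shuttle was called in CAC against Con at any week on the TPM scale, and 3 of the 4 were lower after rescaling at both 6 and 8 weeks. Of all genes, 17.2% and 22.3% were called lower after rescaling at these weeks. Cpt1b was 192, 195, 205, 216 and 228 TPM in Con at 8 weeks and 181, 249 and 259 TPM (lowest, median and highest) in CAC. The groups overlapped, and the change was 0.15 ± 0.08 (adjusted p = 0.107) on the TPM scale and -0.27 after rescaling (adjusted p = 0.00983), so that its sign turned with the scale. Its exons share 81.4% of their bases with the gene model Gm44502 on the same strand. Crat, which buffers acetyl-CoA as acetylcarnitine, had the narrowest spread of the shuttle genes relative to its mean at 8 weeks, with 292 ± 16.2 TPM in Con and 273 ± 12.2 TPM in CAC (SD, n = 5 and 7). Its change was -0.10 ± 0.05 (adjusted p = 0.0734), and -0.51 after rescaling. Cpt2, the inner membrane transferase, was at -0.14 ± 0.10 (adjusted p = 0.212), and -0.55 after rescaling. Cpt1a was at 0.21 ± 0.19 at 8 weeks (adjusted p = 0.312), and its highest value against Con was at 2 weeks, 0.56 ± 0.20 (adjusted p = 0.221).

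Both genes of malonyl-CoA control rose in CAC at 8 weeks on the TPM scale, where 65.3% of all genes were called higher, and neither was called after rescaling. Acacb, which encodes ACC2, the enzyme that makes malonyl-CoA at the mitochondrial surface, was 60.8, 72.8, 74.3, 82.9 and 88.9 TPM in Con at 6 weeks and 94.0, 103, 103, 119.5 and 191 TPM in CAC. No CAC library fell within the mock range. The change was 0.64 ± 0.19 at 6 weeks (adjusted p = 0.00426) and 0.72 ± 0.17 at 8 weeks (adjusted p = 3.48e-04), and after rescaling it was 0.31 at both weeks (adjusted p = 0.168 and 0.113). At 8 weeks the CAC libraries reached from 66.5 to 248 TPM, with a coefficient of variation of 49.5%, the widest of any member in that group. Mlycd, malonyl-CoA decarboxylase, rose at 8 weeks by 0.42 ± 0.15 (adjusted p = 0.0139), and was 0.01 after rescaling (adjusted p = 0.959). It was 70.3 ± 6.66 TPM in Con and 99.4 ± 35.9 TPM in CAC (SD, n = 5 and 7). Without the CAC library of replicate 6 at 8 weeks its adjusted p was 0.0661. That library held the highest values of the group for both genes, 248 TPM for Acacb and 157 TPM for Mlycd. At 4 and 6 weeks, too, a single CAC library led in both: replicate 2 at 4 weeks (143 and 112 TPM) and replicate 1 at 6 weeks (191 and 134 TPM). The same 3 libraries had the highest Acadl, Echs1 and Acacb of their groups and the lowest Acads.

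The 7 acyl-CoA dehydrogenases, which carry out the first step of each round, moved in both directions. Acads, the short-chain enzyme, was 88.7, 88.8, 91.0, 94.5 and 104 TPM in Con at 8 weeks, and 48.0, 60.1 and 84.0 TPM (lowest, median and highest) in CAC. All 7 CAC libraries were below all mock libraries, and the same held for all 5 at 6 weeks and at 4 weeks. The change was -0.26 ± 0.11 at 4 weeks (adjusted p = 0.0712), -0.55 ± 0.11 at 6 weeks (adjusted p = 1.17e-04) and -0.64 ± 0.10 at 8 weeks (adjusted p = 9.96e-07). After rescaling it was -0.46, -0.87 and -1.05, and called at all 3 weeks. Acadvl, for very long chains, fell at 8 weeks by 0.42 ± 0.11 (adjusted p = 4.98e-04), from 302 ± 22.4 to 229 ± 50.4 TPM (SD, n = 5 and 7). In CAC 6 libraries lay at 179 to 238 TPM, below the mock range of 279 to 331 TPM, and replicate 1 stood at 335 TPM. The exons of Acadvl share 42.9% of their bases with Dvl2 on the opposite strand, which was at a median of 1.90 TPM. Acadm and Acadl, for medium and long chains, were not called at 8 weeks (-0.18 ± 0.10 with an adjusted p of 0.0787, and 0.23 ± 0.14 with an adjusted p of 0.123). After rescaling Acadm was lower by 0.60 on the log2 scale and Acadl was at -0.18 (adjusted p = 0.232).

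Acad10 and Acad11 are less studied members of the family, and Acad9 serves mainly in the assembly of respiratory complex I. Acad10 was 1.23, 1.53, 1.67, 1.72 and 2.22 TPM in Con at 8 weeks, and in CAC it was 2.10, 3.03 and 3.88 TPM (lowest, median and highest). Only the lowest CAC library lay within the mock range. The gene rose by 0.36 ± 0.13 at 6 weeks (adjusted p = 0.0186), a call lost without replicate 1 of Con or replicate 4 of CAC (adjusted p up to 0.0812), and by 0.57 ± 0.12 at 8 weeks (adjusted p = 7.61e-05), and by 0.27 at 8 weeks after rescaling (adjusted p = 0.0277). It was the only member whose difference from Con changed between the 4 weeks by the F test (1 of 31, adjusted p = 0.0203, against 12.1% of all genes). In that F test it remained called in all 42 refits that left out 1 CAC or Con library (adjusted p up to 0.0461). The count of members rose to 3 without replicate 2 of CAC at 4 weeks, and to 2 without replicate 5 of Con at 2 weeks or without replicate 1 or 3 of CAC at 8 weeks. After rescaling the F test called Acsl4, Acads, Acad9 and Decr1 and not Acad10 (4 of 31, against 4.25% of all genes). Acad9 fell at 6 weeks by 0.17 ± 0.06 (adjusted p = 0.00964), with 11.7 to 13.6 TPM in Con and 10.2 to 11.5 TPM in CAC. It was also 10.03 to 10.9 TPM in NCAC at that week, and CAC against NCAC was at 0.05 on the TPM scale (adjusted p = 0.434) and lower after rescaling (-0.36, adjusted p = 1.15e-05). Acad11 was not called on the TPM scale and was at -0.12 ± 0.09 at 8 weeks (adjusted p = 0.229). After rescaling it was called lower at 6 weeks (-0.50) and 8 weeks (-0.52).

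Of the 5 genes of the later steps of the round, 4 fell at both 6 and 8 weeks on the TPM scale. With the downward shift of rescaling they were called lower on that scale too. Of all genes 5.41% and 5.55% were called lower at these weeks, and 17.2% and 22.3% after rescaling. Hadha and Hadhb encode the subunits of the mitochondrial trifunctional protein, which carries out these steps for long chains. They lie head to head on chromosome 5 (GRCm38), Hadha on the minus strand ending at 30155162 and Hadhb on the plus strand starting at 30155248. The sequence between the 2 annotated starts is shown because both genes are read from it, outward in opposite directions. It is printed on the plus strand, chr5:30155163-30155247, from RefSeq (GRCm38.p6), is 85 bases long and 69.4% G or C, and holds no AGGTCA on either strand.
Hadha and Hadhb: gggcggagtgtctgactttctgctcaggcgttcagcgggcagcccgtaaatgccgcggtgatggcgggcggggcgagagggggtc

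Hadha was 142, 169, 179.8, 180.2 and 193 TPM in Con at 6 weeks, and 116, 118, 125, 129.5 and 133 TPM in CAC. Hadhb was 130.4, 151, 154, 158 and 187 TPM in Con and 105, 108, 108, 111 and 122 TPM in CAC at that week. For both genes every CAC library was below every mock library. Hadha changed by -0.46 ± 0.11 (adjusted p = 4.62e-04) and Hadhb by -0.48 ± 0.11 (adjusted p = 6.05e-04). At 8 weeks the changes were -0.36 ± 0.10 (adjusted p = 0.00143) and -0.37 ± 0.11 (adjusted p = 0.00191). The groups then overlapped through 1 CAC library, replicate 1, at 169.8 TPM for Hadha and 162 TPM for Hadhb. After rescaling the falls were 0.77 and 0.78 at 8 weeks on the log2 scale. The ratio of Hadha to Hadhb within a library kept to 1.03 to 1.21 in CAC and 1.05 to 1.10 in Con at 8 weeks.

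Hadh, the hydroxyacyl-CoA dehydrogenase for medium and short chains, fell from 83.3 ± 3.88 TPM in Con to 67.8 ± 8.72 TPM in CAC at 8 weeks (SD, n = 5 and 7). The change was -0.30 ± 0.08 (adjusted p = 7.63e-04). In CAC 6 of the 7 libraries, at 58.6 to 68.7 TPM, were below the mock range of 78.2 to 87.6 TPM. Acaa2, the matrix thiolase that ends the round, was 256, 325, 331, 349 and 351 TPM in Con and 188, 199, 211, 232 and 266 TPM in CAC at 6 weeks. It fell by 0.56 ± 0.13 (adjusted p = 6.68e-04) at that week and by 0.43 ± 0.12 at 8 weeks (adjusted p = 0.00191). Echs1, the short-chain enoyl-CoA hydratase, went the other way: 55.9, 56.1, 57.4, 58.4 and 64.3 TPM in Con and 62.3, 69.8, 72.8, 81.7 and 89.2 TPM in CAC at 6 weeks. It rose by 0.35 ± 0.14 (adjusted p = 0.0299) with 1 CAC library inside the mock range, a call lost in 4 of 10 refits that left out 1 library, and it was 0.02 after rescaling (adjusted p = 0.902). At 8 weeks Echs1 was spread from 42.1 to 107 TPM in CAC and was not called (0.15 ± 0.13, adjusted p = 0.298).

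**Figure D3:**
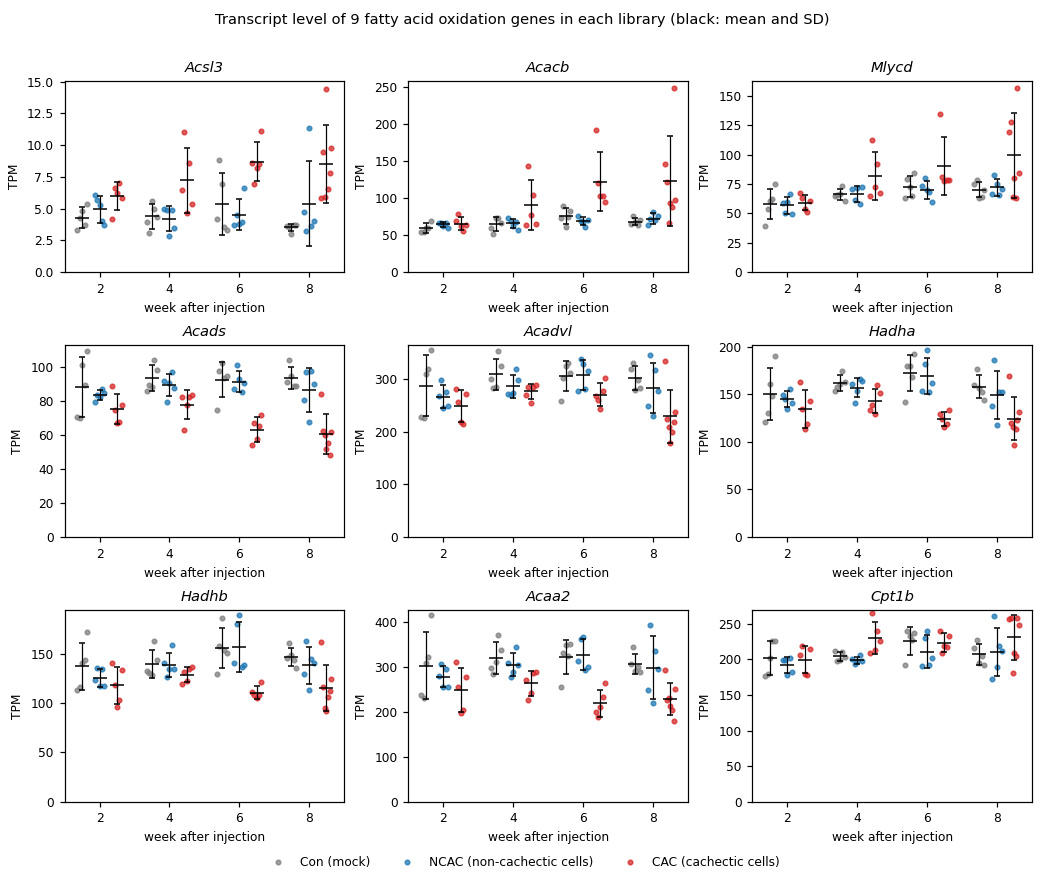
TPM of 9 members in each library, by week after injection. Points are libraries (grey Con, blue NCAC, red CAC), and black marks are the group mean and SD. Acads, Hadha, Hadhb and Acaa2 sit lower in CAC at 6 and 8 weeks, Acsl3 and Acacb sit higher, and Cpt1b overlaps between groups.

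Enzymes for unsaturated chains were also split. Eci1 and Eci2 are both enoyl-CoA isomerases, of mitochondria and of mitochondria and peroxisomes. Eci2 was 48.7, 51.6, 53.8, 54.8 and 56.0 TPM in Con and 64.1, 66.6, 68.9, 70.8 and 93.1 TPM in CAC at 6 weeks, with no overlap. It rose by 0.32 ± 0.11 at 4 weeks (adjusted p = 0.0262, lost in 4 of 10 refits that left out 1 library), 0.44 ± 0.11 at 6 weeks (adjusted p = 8.80e-04) and 0.51 ± 0.10 at 8 weeks (adjusted p = 2.10e-05). After rescaling its changes were 0.12, 0.11 and 0.10 and were not called. Eci1 fell from 219 ± 24.0 to 165.6 ± 16.5 TPM at 6 weeks (SD, n = 5 each), by 0.40 ± 0.11 on the log2 scale (adjusted p = 0.00183), and by 0.26 ± 0.10 at 8 weeks (adjusted p = 0.0171). Decr1, the dienoyl-CoA reductase, was 69.3, 72.8, 73.6, 77.1 and 79.1 TPM in Con at 8 weeks and 40.7, 57.1 and 63.7 TPM (lowest, median and highest) in CAC. The groups did not overlap, and the change was -0.43 ± 0.10 (adjusted p = 1.47e-04). Ech1, the dienoyl-CoA isomerase, was at -0.04 ± 0.09 at 8 weeks (adjusted p = 0.682), and -0.46 after rescaling. The peroxisomal thiolase Acaa1a was at 0.24 ± 0.15 (adjusted p = 0.151). It has a close paralog, Acaa1b, which stood at a median of 1.83 TPM in Con and 1.87 TPM in CAC at 8 weeks, and how reads shared by the pair were counted is not given in the sources used here.

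Of the 3 genes of electron transfer to the respiratory chain, Etfb fell and the other two did not pass the test. Etfb was 326, 369, 370.4, 414 and 417 TPM in Con and 295, 303, 319, 323 and 329 TPM in CAC at 6 weeks. The highest CAC library lay just inside the mock range. It fell by 0.27 ± 0.08 (adjusted p = 0.00460), and by 0.17 ± 0.07 at 8 weeks (adjusted p = 0.0353), a call lost in 5 of 12 refits that left out 1 library. Its exons share 53.0% of their bases with the gene model Gm45233 on the same strand. Etfa, its partner subunit, was at -0.07 ± 0.10 at 8 weeks (adjusted p = 0.561). Etfdh, which hands the electrons to ubiquinone, was at -0.22 ± 0.10 (adjusted p = 0.0517). All 3 were lower after rescaling at 6 and 8 weeks, where 17.2% and 22.3% of all genes were called lower. At 8 weeks the falls were 0.59 (Etfb), 0.48 (Etfa) and 0.62 (Etfdh) on the log2 scale.

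Levels of 2 genes within the same library do not depend on how that library is scaled, and a pair of such ratios, chosen after their values were seen, is given as a description. The ratio of Acacb to Acads had medians of 0.715 in Con, 0.782 in NCAC and 1.73 in CAC at 8 weeks. All CAC libraries at 6 weeks (1.31 to 3.55) were above all mock libraries (0.594 to 0.973) and NCAC libraries (0.689 to 0.865), and at 8 weeks CAC (1.11 to 5.17) overlapped NCAC (0.714 to 1.21) and not Con (0.708 to 0.796). The ratio of Hadha to Cpt1b was 0.728 to 0.833 in Con, 0.729 to 0.829 in NCAC and 0.526 to 0.670 in CAC at 4 weeks. At 6 weeks it was 0.737 to 0.814 in Con and 0.531 to 0.596 in CAC, and at 8 weeks 0.742 to 0.802 in Con, 0.626 to 0.798 in NCAC and 0.463 to 0.661 in CAC. From 4 weeks on, CAC lay below Con in this ratio with no overlap.

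**Figure D4:**
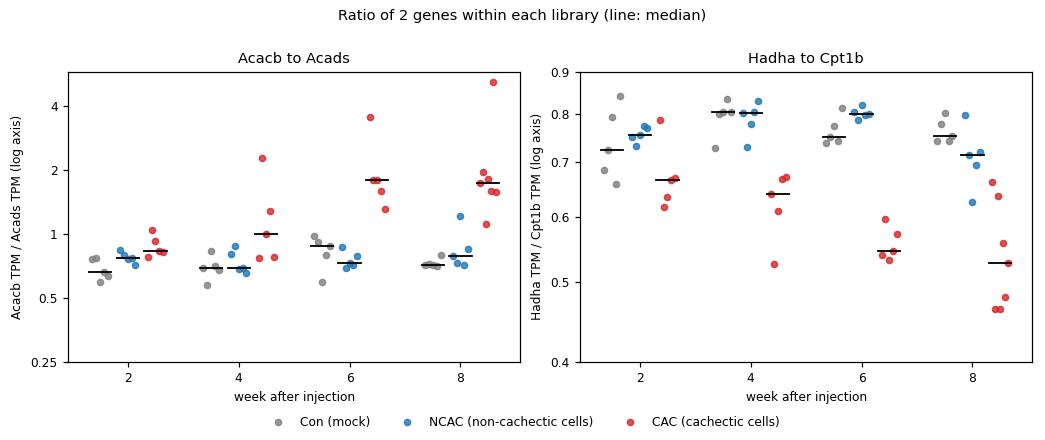
Ratio of Acacb to Acads (left) and of Hadha to Cpt1b (right) within each library, on log axes, by week. Points are libraries (grey Con, blue NCAC, red CAC) and lines are medians. At 6 weeks CAC stands at 1.31 to 3.55 on the left and at 0.531 to 0.596 on the right, outside the ranges of Con and NCAC.

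NCAC mice, which received melanoma cells labelled as non-cachectic, were compared with mock mice. No member was called at any of the 4 weeks, in the mean of the 4 weekly differences, or in the F test of a difference changing between weeks (0 of 31 each by limma). In all of these 0% of all genes were called. At an unadjusted p under 0.05 there were 0, 0, 1 and 1 members at 2, 4, 6 and 8 weeks, 1 in the mean over weeks and 1 in the F test. The 2 in single weeks were Acad9 at 6 weeks (-0.22 ± 0.06, unadjusted p = 2.70e-04, adjusted p = 0.669) and Acaa1a at 8 weeks (0.34 ± 0.16, unadjusted p = 0.0395, adjusted p of 1.00). The weekly changes of the 31 members ran from -0.25 to 0.38 on the log2 scale. A p over the threshold does not show that NCAC and Con were alike.

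Set against NCAC, which shares the CAC libraries with the comparison above, the members gave like counts. At 2 weeks 0 of 31 were called (2 at an unadjusted p under 0.05 by limma; 1.16% of all genes higher, 0.0162% lower, and after rescaling 0.356% and 0.0971%). At 4 weeks 2 rose and 0 fell (18.1% and 1.59% of all genes), and after rescaling 0 rose and 2 fell (2.97% and 5.12%). Without replicate 2 of CAC neither of the 2 was called, and 1 was called without replicate 4 of CAC or without replicate 1, 3, 4 or 5 of NCAC. At 6 weeks 7 rose and 9 fell (64.1% and 4.64%), and after rescaling 0 and 21 (19.7% and 21.7%). At 8 weeks 7 rose and 7 fell (67.5% and 4.80%), and after rescaling 1 and 21 (22.6% and 22.4%). A fit of these 2 groups alone called 4 higher and 3 lower at 8 weeks, and without replicate 2 of NCAC 4 were lower. The members higher than NCAC at 8 weeks were Acsl3, Acsl5, Cpt1a, Acacb, Mlycd, Acad10 and Eci2, and those lower were Acads, Acadvl, Hadha, Hadhb, Hadh, Acaa2 and Decr1. Of these, Cpt1a (0.40 ± 0.19, adjusted p = 0.0490) was not called against Con. Its call was lost in 8 of 12 refits that left out 1 library, and the change was 0.03 after rescaling. Eci1 and Etfb, lower than Con at 8 weeks, were not called against NCAC. Acads was 67.3, 80.5, 89.7, 97.2 and 97.6 TPM in NCAC at 8 weeks and fell in CAC by 0.52 ± 0.10 (adjusted p = 2.32e-05), with overlap through replicate 1 of CAC at 84.0 TPM. At 6 weeks Acaa2 was 294 to 367 TPM in NCAC and 188 to 266 TPM in CAC.

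Genes next to these in the pathway, from a list of 30 for uptake, storage, thioesters and peroxisomal or ketone oxidation, were tested in CAC against Con at 8 weeks. On the TPM scale 16 rose and 3 fell, where 65.3% of all genes were called higher and 5.55% lower. After rescaling 3 rose and 9 fell (22.9% and 22.3% of all genes). Cd36, a fatty acid transporter, went from 177 ± 17.4 to 312 ± 84.5 TPM (0.77 ± 0.16, adjusted p = 4.74e-05), and Acot1, a thioesterase that frees fatty acids from coenzyme A, from 2.35 ± 1.19 to 10.4 ± 8.63 TPM (1.44 ± 0.35, adjusted p = 3.68e-04). Both were also higher after rescaling. Pnpla2, the first lipase of fat droplets, rose by 0.85 ± 0.24 and was not called after rescaling. Oxct1, which activates ketone bodies, fell from 199 ± 19.4 to 110.4 ± 30.4 TPM (-0.88 ± 0.16, adjusted p = 6.82e-06), with no overlap. The other members of the list that fell, named after their values were seen, were the muscle fatty acid binding protein Fabp3 (-0.68 ± 0.21, adjusted p = 0.00458) and the ketone body enzyme Bdh1 (-0.62 ± 0.25, adjusted p = 0.0249). Scp2 rose by 0.24 ± 0.06 on the TPM scale and was called lower after rescaling (-0.17), and Hsd17b10 rose by 0.28 ± 0.07 and was at -0.13 after rescaling. Cpt1c, a form of CPT1 known from brain, rose by 0.55 ± 0.13 to a mean of 1.74 TPM. The carrier Slc25a20, which moves acylcarnitines across the inner membrane, was not called (-0.17 ± 0.10, adjusted p = 0.145).

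In a list of 31 regulators and their targets, 15 rose and 5 fell in CAC against Con at 8 weeks, and 7 rose and 9 fell after rescaling, with the same shares of all genes beside them (65.3% and 5.55%, and 22.9% and 22.3%). Foxo1, a factor of the fasting response, went from 4.83 ± 1.35 to 24.3 ± 14.8 TPM (1.90 ± 0.37, adjusted p = 2.07e-05), and Klf15, a factor that is induced by glucocorticoids, from 28.0 ± 2.81 to 88.4 ± 66.6 TPM (1.31 ± 0.28, adjusted p = 6.12e-05). Lpin1 (1.33 ± 0.18) and Ucp2 (1.29 ± 0.22) rose with no overlap between the groups, as did Ppard (0.71 ± 0.12), Nrf1 (0.61 ± 0.10), Rxra (0.61 ± 0.11) and Ncor1 (0.50 ± 0.08). Of these 8, Rxra and Ncor1 were not called after rescaling. Pdk4, a kinase that turns muscle from glucose to fat, was 227 ± 61.8 TPM in Con and 147.6 to 1658 TPM in CAC (1.24 ± 0.47, adjusted p = 0.0174), and was 0.82 after rescaling (adjusted p = 0.139). Ppara (0.19 ± 0.21, adjusted p = 0.424), Ppargc1a (0.29 ± 0.27, adjusted p = 0.333) and Ucp3 (0.14 ± 0.28, adjusted p = 0.660), known parts or targets of the PPAR pathway, did not pass the test. The 5 that fell, also named after their values were seen, were Esrra, the oestrogen-related receptor alpha (-0.33 ± 0.10, adjusted p = 0.00340), the retinoid receptor Rxrg, the mitochondrial deacetylase Sirt3 and the AMPK subunits Prkab2 and Prkag3.

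RefSeq promoter windows (GRCm38.p6, 250 bases before to 50 after each start) were matched for 26 of the 31 members. The hexamer AGGTCA, the core of sites for PPAR and related receptors, was found on either strand in 6 of the 26 (Acsl6, Cpt1a, Acacb, Acadm, Acadvl and Echs1), and in 18.1% of all 27025 genes with a window. The longer TCAAGGTCA of oestrogen-related receptors, which contains it, was found in Acsl6 alone, and in 0.47% of all genes. Acadvl fell at 8 weeks, and Echs1 and Acsl6 rose at 6 weeks on the TPM scale and not after rescaling. Any link between a motif and these changes was not tested. Stretches of these genes, chosen with their changes known, are shown to place the motif. Each runs 5′ to 3′ on its gene's strand, with the motif in capitals, and Acsl6 carries it on the opposite strand. Their positions are chr11:70015490-70015535 (minus), chr7:140116479-140116524 (minus) and chr11:54303637-54303685 (plus).
Acadvl: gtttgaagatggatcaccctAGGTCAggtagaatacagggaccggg
Echs1: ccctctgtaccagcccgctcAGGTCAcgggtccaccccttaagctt
Acsl6: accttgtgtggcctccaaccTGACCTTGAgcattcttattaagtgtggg

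Markers of other cell types were also compared between CAC and Con at 8 weeks, and their part in the results was not tested. In that comparison 65.3% of all genes were called higher and 5.55% lower, and 22.9% and 22.3% after rescaling. The shares of adipocyte, fibroblast, slow fibre and fast fibre markers called higher on the TPM scale were below that of all genes. After rescaling the shares of adipocyte and fibroblast markers were above that of all genes, and those of both fibre lists were below it. The 8 macrophage markers summed to 47.6 to 177 TPM in Con and 165 to 586 TPM in CAC at 8 weeks, with 8 of 8 called higher (6 of 8 after rescaling) and none at 0. The 7 adipocyte markers summed to 665.5 to 1633 TPM in Con and 979.7 to 2988 TPM in CAC, with 4 of 7 higher. These were Cidec, Fabp4 (0.88 ± 0.21), Cfd and Retn, all also called higher after rescaling. Adipoq and Plin1 were not called on either scale, and Lep was called lower after rescaling only (-0.83, adjusted p = 0.0408). Of 5 endothelial markers 4 were higher and 1 lower (2 and 1 after rescaling), with sums of 64.3 to 99.8 TPM in Con and 112 to 185 TPM in CAC, and of 5 fibroblast markers 2 were higher. These fibroblast markers were Pdgfra and Dcn, both also called higher after rescaling (0.52 and 0.63). Col1a1, Col1a2 and Col3a1 were not called on either scale. Slow fibre markers summed to 1038 to 2595 TPM in Con and 1865 to 2639 TPM in CAC, with 3 of 6 higher and 0 after rescaling. Among 10 fast fibre markers 3 were higher and 2 lower, and 0 and 5 after rescaling.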

How the data were processed

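Gastrocnemius RNA from 62 libraries was sequenced from stranded mRNA libraries, per the labels' protocols, and the reads were mapped to mm10, per the submitters' processing notes. Which aligner, counter and annotation were used is not given in the sources used here. Per gene symbol, the authors deposited TPM values, scaled to the same total in each library. From the low values, 78.0 to 79.6% of which (up to 20 reads) were whole reads within 0.02, relative depth was estimated. Genes with at least 1 TPM in at least 5 libraries (12364) entered a limma fit (version 3.58.1, R 4.3.3) of log2(TPM + 1), with a mean for each of 12 groups and a trended prior. P-values were Benjamini-Hochberg adjusted over all genes, with a threshold of 0.05. The fit was tested on simulated data. Alternatives were a pseudocount of 0.1, no filter (23350 genes), median-ratio rescaling, fits of 2 groups only, a replicate block and each library left out. Named genes were all 31 members, up to 8 called genes of lowest adjusted p from each further list, and Pdk4, Ucp3, Ppara, Ppargc1a and Slc25a20; 1 gene of these lists is not reported here. The members and lists were chosen with earlier results of these data known. Gene overlaps were read from GENCODE M21. Pairing by replicate number was checked through correlations of deviations from group means, given with the alternatives.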

Additional observations from a re-analysis of the deposited data

Results flagged for a closer look

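In 21 of 372 groups of libraries (5.65%) 1 library of a member stood far from the others, and chance flags about 1 in 20 groups. Values are TPM, with the range of the other libraries of the group in brackets. Among the synthetases and the carnitine shuttle, Acsl3 was 3.01 in Con replicate 3 at 8 weeks (3.54 to 3.74) and 11.3 in NCAC replicate 3 at 8 weeks (3.26 to 4.74). Cpt1a was 8.14 in Con replicate 1 at 8 weeks (5.89 to 6.41) and 4.91 in CAC replicate 5 at 4 weeks (7.45 to 7.91). Con replicate 1 at 6 weeks was low in 3 members, with 192 for Cpt1b (228 to 240.1), 45.0 for Cpt2 (59.1 to 65.9) and 256 for Acaa2 (325 to 351).

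CAC replicate 1 at 6 weeks was high in Mlycd at 134 (78.0 to 81.1) and in Eci2 at 93.1 (64.1 to 70.8). CAC replicate 2 at 4 weeks was low in Acads at 63.1 (77.6 to 83.5) and high in Echs1 at 93.0 (55.9 to 63.7). Hadh was 86.2 in CAC replicate 1 at 8 weeks (58.6 to 68.7). At 2 weeks Eci2 was 54.5 in CAC replicate 3 (48.3 to 49.4) and Decr1 was 80.8 in CAC replicate 1 (58.0 to 62.9).

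Acad10 was 1.93 in NCAC replicate 5 at 8 weeks (1.53 to 1.60), and Acad11 was 45.4 in Con replicate 2 at 8 weeks (41.1 to 42.1). Acaa1a was 23.1 in NCAC replicate 1 at 4 weeks (20.1 to 20.8), 28.2 in CAC replicate 4 at 6 weeks (19.8 to 20.4) and 13.3 in CAC replicate 6 at 8 weeks (20.6 to 24.7). NCAC replicate 4 at 4 weeks was high in both flavoprotein subunits, with 226 for Etfa (175 to 184) and 395 for Etfb (360 to 365). The difference between CAC and Con changed between the weeks for Acad10 by the F test of limma (adjusted p = 0.0203), with a change of -0.17 at 2 weeks and 0.57 at 8 weeks.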

How the results depend on the processing

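Counts of members called depended most on scaling. After median-ratio rescaling, CAC against Con gave 0 higher and 8 lower at 4 weeks, 0 and 20 at 6 weeks and 2 and 20 at 8 weeks. CAC against NCAC gave 0 and 2, 0 and 21, and 1 and 21, and the F test of the CAC minus Con difference called 4. At 4 weeks the 2 higher members became 1 with no filter and 0 in a fit of 2 groups only, against Con and against NCAC alike. At 8 weeks a fit of 2 groups only gave 4 higher and 3 lower against NCAC. The cause was not tested.

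Leaving out 1 library in turn gave, against Con, 0 to 3 higher at 4 weeks, 4 to 6 higher and 9 to 10 lower at 6 weeks, and 6 to 8 higher and 8 to 12 lower at 8 weeks. Against NCAC it gave 0 to 2 higher at 4 weeks, 7 higher and 8 to 9 lower at 6 weeks, and 5 to 9 higher and 4 to 10 lower at 8 weeks. The F test, for which this alternative was chosen after seeing the data, called 1 to 3.

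Among changes called on at least 1 scale, signs turned with rescaling for Cpt1b against Con at 8 weeks (0.15 to -0.27). Against NCAC at 6 weeks they turned for Cpt1b (to -0.36), Crat (to -0.41), Acadl (to -0.41), Acad9 (to -0.36) and Echs1 (0.40 to -0.0448). Against NCAC at 8 weeks they turned for Cpt1b (to -0.30), Mlycd (0.39 to -0.0473), Acad9 (to -0.38) and Ech1 (to -0.37).

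With the replicate block, CAC against Con gave 2 higher and 0 lower at 4 weeks, 6 and 9 at 6 weeks and 5 and 8 at 8 weeks. CAC against NCAC gave 2 and 0, 7 and 9, and 6 and 7, and the F test called 1. Deviations of same-numbered libraries had a median correlation of -0.002 (-0.299 to 0.295, 60 pairs), and other pairs -0.006 (-0.340 to 0.490, 260 pairs), so the numbers were not taken to pair the mice. Estimated depth limits the rarest members most, with Acad10 at 134 to 407 reads a library.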
